A study of Homo sapiens with 4 samples.

Results

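The genes described here are 9 receptor tyrosine kinases of basal breast cancer: EGFR, ERBB2, ERBB3, MET, AXL, IGF1R, INSR, FGFR1 and EPHA2. They were picked by name, and each of the 9 was found by its Ensembl ID among the 20263 genes of the count table. All 9 passed the filter on low counts that left 13612 tested genes. RNA came from MDA-MB-231, an established line of triple-negative breast cancer cells with a mesenchymal, basal character. The 2 RB-1 libraries came from cells treated for 24 h with RB-1, a derivative of the CDK4/6 inhibitor ribociclib per the series title, and the 2 DMSO libraries from cells without RB-1, labelled by the solvent. All cells grew in DMEM with serum and antibiotics, and the labels give no dose of RB-1.

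A typical receptor tyrosine kinase binds a growth factor outside the cell, pairs with a second receptor and phosphorylates tyrosines on the partner's tail, though not every member does each of these. Adaptors such as GRB2 and SHC1 dock there and pass the signal to the RAS-RAF-MEK-ERK and PI3K-AKT cascades, while phosphatases and ubiquitin ligases end it. Triple-negative cells lack hormone receptors and ERBB2 amplification, and EGFR, AXL, MET and EPHA2 are the receptors most often described on their basal, mesenchymal members.

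The labelled identity was checked against marker genes. Of 9 mesenchymal basal markers, 8 had at least 428 counts in every library, among them VIM, a filament protein of mesenchymal cells, with 204640 and 185947 counts in RB-1 and 124373 and 139013 in DMSO. SPARC, the exception, had 20 to 33 counts. Of the 9, CAV2 rose (log2 fold change 0.94) and CAV1 (-0.90), ZEB1 (-2.18) and SNAI2 (-1.57) fell after RB-1, by edgeR at an adjusted p under 0.05. That is 1 higher and 3 lower of 9, against 12.8% higher and 16.1% lower among all tested genes. The luminal and epithelial list was low for CDH1, TFF1, ESR1 and PGR, with at most 58 counts, while KRT19 had 14267 and 11333 counts in RB-1 and 6528 and 9051 in DMSO and EPCAM 509 and 490 in RB-1 and 330 and 313 in DMSO. Of the 9 luminal and epithelial genes 6 were tested, with a median log2 fold change of -0.72: ERBB3 rose, and PGR (-1.91), FOXA1 (-3.48) and GATA3 (-2.54) fell. That is 1 higher and 3 lower of 6, against 12.8% higher and 16.1% lower among all tested genes. The part of these marker changes in the receptor results was not tested. Apart from ERBB3, the marker calls in this paragraph were not followed over other ways of processing. Of the leukocyte markers CD3E was at 0 in all libraries, and the highest, CD14, reached 32 counts. Of 2 tested leukocyte markers 1 fell, against 16.1% of all tested genes: PTPRC, with 5 and 0 counts in RB-1 and 22 and 13 in DMSO. Endothelial and stromal markers had at most 265 counts. Of 5 tested 1 rose, against 12.8% of all tested genes: ACTA2, with 244 and 257 counts in RB-1 and 70 and 117 in DMSO. About 12.8% of the exon bases of ACTA2 overlap FAS on the other strand. Library totals ran from 34122874 to 37754168 counts. Separate cultures behind the libraries of a group are not stated in the labels. The p-values therefore rest on the spread between samples that may be technical repeats.

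MET transcripts fell and ERBB3 transcripts rose after RB-1, and the other 7 receptors did not pass the test. MET, the receptor of hepatocyte growth factor, was 2.60-fold lower in RB-1 cells. ERBB3, the kinase-impaired partner of the ErbB family, was 2.15-fold higher but at a low level. The ERBB3 call was lost whichever library was left out, and the MET call without RB-1 replicate 1 or DMSO replicate 1. The receptors of highest level, AXL and EPHA2, differed between the groups by less than their error, and EGFR lay just outside the threshold. By the quasi-likelihood test of edgeR, with the adjusted p required to be under 0.05, 2 of 9 receptors (22.2%) were called, against 28.8% of all tested genes. In bulk RNA, fewer cells with a transcript and less of it per cell cannot be told apart. The call rate of the 9 was not above that of genes at large. The median log2 fold change of the 9 was -0.27, against 0.01 over all tested genes. The libraries of the groups did not overlap for 6 of the 9 (66.7%), against 69.7% of all tested genes, with RB-1 below DMSO in 4 (34.3% of all genes) and above it in 2 (35.3% of all genes).

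**Figure D1:**
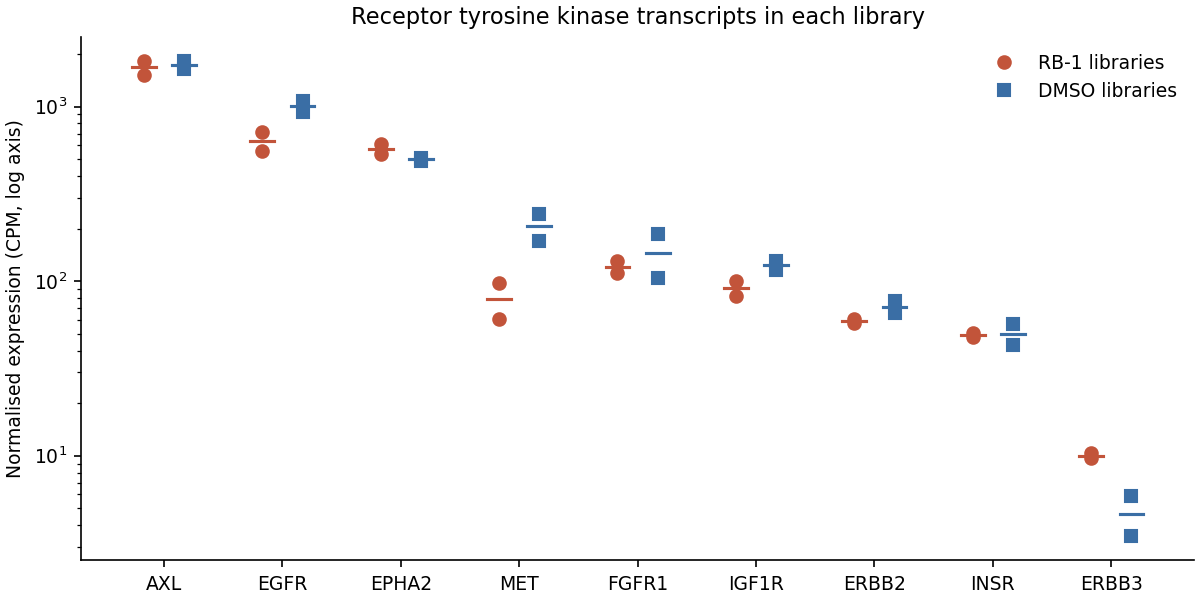
Normalised expression (CPM, log axis) of the 9 receptors in each library, with RB-1 libraries as circles left of DMSO libraries as squares and short lines at the group means (2 libraries per group). The groups stand well apart for MET (60.8 and 98.0 CPM in RB-1, 243 and 169.6 in DMSO) and for ERBB3, while the AXL, FGFR1 and INSR values overlap.

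Values are given below as CPM, counts scaled to each library's TMM-adjusted total. EGFR (ENSG00000146648), which binds epidermal growth factor, had 554 and 711 CPM in RB-1 and 933 and 1079.9 CPM in DMSO. Both RB-1 libraries lay below both DMSO libraries. EGFR's log2 fold change was -0.67 ± 0.23 (SE; 95% interval -1.18 to -0.16; edgeR adjusted p = 0.0517), which misses the threshold of 0.05 after adjustment over all genes. The call changed with small changes of method: the adjusted p was 0.0490 with DESeq2, 0.0478 with limma-voom and 0.0478 with a stricter count filter. Leaving out 1 library gave -0.86 (adjusted p = 0.0491) for RB-1 replicate 2, -0.50 (0.271) for RB-1 replicate 1, -0.77 (0.0897) for DMSO replicate 1 and -0.54 (0.271) for DMSO replicate 2. With library totals alone it was -0.46 (adjusted p = 0.168). With a correction for transcript length and GC content the value was -0.11 (edgeR adjusted p = 0.643).

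ERBB2 (ENSG00000141736), the ErbB receptor with no known ligand of its own, had 60.8 and 57.3 CPM in RB-1 and 77.2 and 65.6 CPM in DMSO. The RB-1 values lay below the DMSO values, and the difference did not pass the test (log2 fold change -0.27 ± 0.25, edgeR adjusted p = 0.441). The interval of -0.84 to 0.29 leaves room for a fall by up to 0.84 on the log2 scale. About 5.53% of its exon bases overlap MIEN1 on the other strand, and whether the counting used strand is not given in the labels.

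ERBB3 (ENSG00000065361), which binds neuregulins and signals through partners such as ERBB2, had 366 and 387 counts in RB-1 and 205 and 113 counts in DMSO. Scaled to library size, that is 9.70 and 10.3 CPM in RB-1 against 5.88 and 3.45 CPM in DMSO. Both RB-1 libraries lay above both DMSO libraries, and the DMSO pair differed from each other more than the RB-1 pair. The log2 fold change was 1.10 ± 0.36 (SE; interval 0.32 to 1.89; edgeR adjusted p = 0.0406). The call was lost whichever library was left out. Leaving out an RB-1 library gave 1.16 (replicate 1, adjusted p = 0.0994) or 1.06 (replicate 2, 0.0947), and leaving out a DMSO library gave 1.54 (replicate 1, 0.0530) or 0.79 (replicate 2, 0.291). It stayed at 1.21 with the length and GC correction (edgeR adjusted p = 0.0251), and the adjusted p was 0.0502 with no count filter.

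MET (ENSG00000105976) had 60.8 and 98.0 CPM in RB-1, averaging 79.4 ± 26.2, and 243 and 169.6 CPM in DMSO, averaging 206 ± 52.0 (SD, n = 2 each). The higher RB-1 library lay well below the lower DMSO library. The log2 fold change was -1.38 ± 0.30 (SE; interval -2.04 to -0.72; edgeR adjusted p = 0.00838). MET fell under the other scalings too, at -1.26 with upper-quartile factors and -1.19 with library totals alone. Leaving out RB-1 replicate 1 gave -1.07 (adjusted p = 0.0618) and leaving out DMSO replicate 1 gave -1.10 (0.0533), which end the call. With the length and GC correction the fall was smaller, at -0.78 ± 0.21 (edgeR adjusted p = 0.0230).

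The region before the start of the MET gene is shown because MET was the receptor with the smallest p, with those of EGFR, just outside the threshold, and EPHA2, which did not pass, for comparison. Each is the 250 bases upstream of a transcription start in RefSeq (GRCh38.p14), written 5′ to 3′ along the gene's strand. For EGFR it is the first of 2 starts listed. Capitals mark GC boxes, the letters GGGCGG on either strand, which are bound by SP1-type factors:
MET promoter, chr7:116671946-116672195, plus strand: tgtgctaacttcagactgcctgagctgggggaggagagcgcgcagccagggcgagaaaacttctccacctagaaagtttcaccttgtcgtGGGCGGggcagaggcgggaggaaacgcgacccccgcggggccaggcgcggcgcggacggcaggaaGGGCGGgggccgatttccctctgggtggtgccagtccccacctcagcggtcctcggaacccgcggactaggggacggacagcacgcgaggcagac
EGFR promoter, chr7:55018767-55019016, plus strand: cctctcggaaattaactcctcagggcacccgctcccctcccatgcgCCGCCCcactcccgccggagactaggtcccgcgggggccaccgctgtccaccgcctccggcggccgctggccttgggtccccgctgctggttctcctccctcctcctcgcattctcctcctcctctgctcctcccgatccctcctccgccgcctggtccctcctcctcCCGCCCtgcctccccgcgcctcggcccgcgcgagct
EPHA2 promoter, chr1:16156070-16156319, minus strand: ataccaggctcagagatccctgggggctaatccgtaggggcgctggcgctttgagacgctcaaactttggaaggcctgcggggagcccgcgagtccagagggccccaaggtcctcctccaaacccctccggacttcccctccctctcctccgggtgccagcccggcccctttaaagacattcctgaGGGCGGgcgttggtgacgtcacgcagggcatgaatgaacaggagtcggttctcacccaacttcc
The MET and EGFR windows hold 2 GC boxes each and the EPHA2 window 1. Of all 35116 RefSeq windows of this length, 42.6% hold at least 1 and 75.7% hold fewer than 2. None of these 3 windows holds the TATA box letters TATAAA, which 10.7% of all windows hold, or the AP-1 letters TGANTCA, which 6.57% hold. The window of the second EGFR start, at chr7:55109589-55109838, differs: it holds 2 TATAAA, 2 TGANTCA and 0 GC boxes, with a GC content of 38.8%. GC content was 68.4% for MET, 73.6% for EGFR and 63.2% for EPHA2. Windows were listed for 7 of the 9 receptors. Among those not printed, INSR held 4 GC boxes, IGF1R 2, the first AXL start 2, the second AXL start 0 and ERBB2 0. The ERBB2 window held 1 AP-1 site. A link between GC boxes and the fold changes was not tested.

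AXL (ENSG00000167601), the receptor of the vitamin K-dependent ligand GAS6 and a marker of mesenchymal carcinoma cells, had 1833 and 1512 CPM in RB-1 and 1648 and 1823 CPM in DMSO. The groups overlapped (log2 fold change -0.05 ± 0.22, interval -0.55 to 0.44, edgeR adjusted p = 0.878). The sign of this small difference turned with the scaling, to 0.05 with upper-quartile factors and 0.14 with library totals alone.

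The insulin receptor pair responds to insulin and the insulin-like growth factors. IGF1R (ENSG00000140443) had 82.6 and 99.7 CPM in RB-1 and 130.5 and 116 CPM in DMSO. RB-1 lay below DMSO, by less than the fit's error allows to call (log2 fold change -0.44 ± 0.24, interval -0.97 to 0.10, edgeR adjusted p = 0.200). INSR (ENSG00000171105) had 48.0 and 50.2 CPM in RB-1 and 56.4 and 43.3 CPM in DMSO, so that both RB-1 values fell between the DMSO values (-0.02 ± 0.27, interval -0.62 to 0.58, edgeR adjusted p = 0.961). With the length and GC correction both signs turned, to 0.11 for IGF1R and 0.41 for INSR, with neither past the threshold. Within each library IGF1R exceeded INSR per transcript length, by 1.26-fold and 1.45-fold in RB-1 and 1.69-fold and 1.96-fold in DMSO.

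FGFR1 (ENSG00000077782), a receptor of fibroblast growth factors, had 129.7 and 111 CPM in RB-1 and 104 and 187 CPM in DMSO. The RB-1 values lay inside the range of the DMSO values (log2 fold change -0.27 ± 0.30, interval -0.93 to 0.39, edgeR adjusted p = 0.524). Without DMSO replicate 2 its log2 fold change was 0.24. EPHA2 (ENSG00000142627), a receptor of membrane-bound ephrins of the A type, had 609 and 532 CPM in RB-1 and 487 and 509 CPM in DMSO. RB-1 lay above DMSO, but by less than the error (0.20 ± 0.22, interval -0.29 to 0.68, edgeR adjusted p = 0.531).

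**Figure D2:**
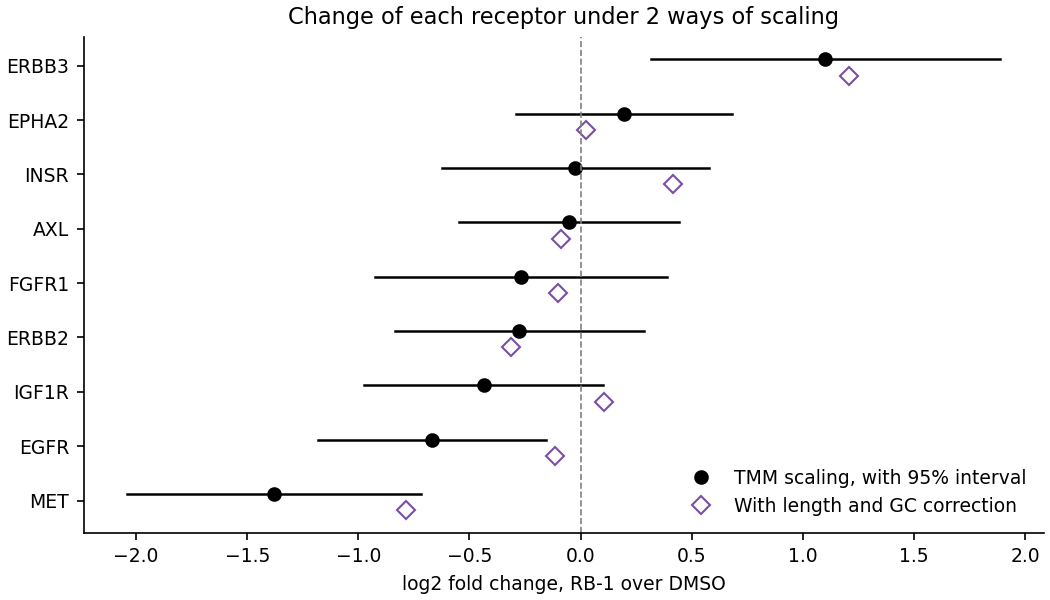
Log2 fold change (RB-1 over DMSO) of the 9 receptors, as filled circles with 95% intervals for the fit with TMM scaling and as open diamonds for the fit with a length and GC correction. The MET, EGFR and IGF1R values move toward 0 or past it with the correction (MET -1.38 to -0.78, EGFR -0.67 to -0.11, IGF1R -0.44 to 0.11), and ERBB3 stays above 1 (1.10 and 1.21).

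Transcript length moved with the fold changes of all genes, and receptor mRNAs are long. Of the 9 receptors 6 (EGFR, ERBB3, MET, IGF1R, INSR and FGFR1) are among the 3398 tested genes with the longest transcripts, of 5419 bases or more. The other 3 (ERBB2, AXL and EPHA2) are in the next length class, of 3654 to 5418 bases. In the longest class the median log2 fold change was -0.46, and 31.1% of genes were lower and 5.24% higher. In the class with the shortest transcripts, up to 2364 bases, the median was 0.45. EGFR at 9821 bases lay at about the median of genes of its length, while MET at 6635 bases lay below most and ERBB3 at 5919 bases above most. Length also separated the RB-1 pair: the median log2 ratio of RB-1 replicate 1 over replicate 2 was 0.29 in the shortest class and -0.32 in the longest. In the DMSO pair it was 0.02 in the shortest and 0.15 in the longest. The correction removes whatever follows length and GC in each library, whether it came from RB-1 or from handling. It cannot tell these apart, and the part of length in each receptor's change was not tested.

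**Figure D3:**
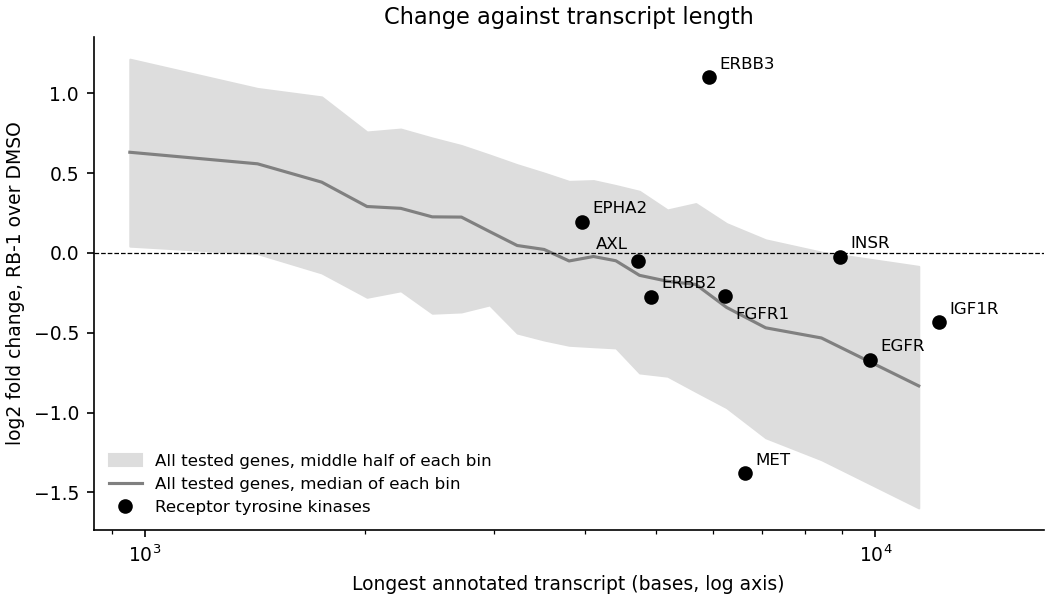
Log2 fold change (RB-1 over DMSO) against the longest annotated transcript (bases, log axis) for the 9 receptors as points. The grey line and band give the median and the interquartile range of all tested genes in 20 bins of about equal size, which decline with length. MET lies below the band and ERBB3 above it.

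Levels of different receptors were compared as CPM per kb of the longest annotated transcript. AXL was highest, at 387 and 319 CPM per kb in RB-1 and 348 and 385 in DMSO, and ranked first of 58 receptor tyrosine kinases in every library. EPHA2 followed at 154 and 134 in RB-1 and 123 and 129 in DMSO, and then EGFR at 56.4 and 72.4 in RB-1 and 95.04 and 109.96 in DMSO. The levels of these 3 did not overlap, and together they made up 77.8% and 75.6% of the summed level of the 58 genes in RB-1 and 74.1% and 76.0% in DMSO. The 9 receptors made up 85.1% and 84.2% in RB-1 and 85.5% and 86.3% in DMSO.

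Below EGFR the order differed between libraries, also between those of the same group. MET was at 9.17 and 14.8 CPM per kb in RB-1, ranks 10 and 7, and at 36.6 and 25.6 in DMSO, ranks 4 and 5. FGFR1 was at 20.9 and 17.9 in RB-1, above MET in both, and at 16.7 and 30.1 in DMSO, where it overlapped MET. ERBB2 was at 12.3 and 11.6 in RB-1, overlapping MET, and at 15.7 and 13.3 in DMSO. Over the 4 libraries IGF1R ranged from 6.75 to 10.7 and INSR from 4.83 to 6.30. ERBB3 was lowest of the 9, at 1.64 and 1.75 in RB-1 and 0.993 and 0.583 in DMSO. EGFR exceeded ERBB3 by 34.4-fold and 41.5-fold in RB-1 and by 95.7-fold and 189-fold in DMSO. This order depended on the length used. Over all annotated exon bases in place of the longest transcript, FGFR1 was at 9.37 and 8.05 CPM per kb in RB-1, overlapping MET at 8.64 and 13.9, and at 7.50 and 13.5 in DMSO, below MET at 34.5 and 24.1. On that scale ERBB2 was at 5.89 and 5.55 in RB-1, below MET, and at 7.48 and 6.36 in DMSO. Over the 4 libraries its range then overlapped that of IGF1R (5.92 to 9.36).

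**Figure D4:**
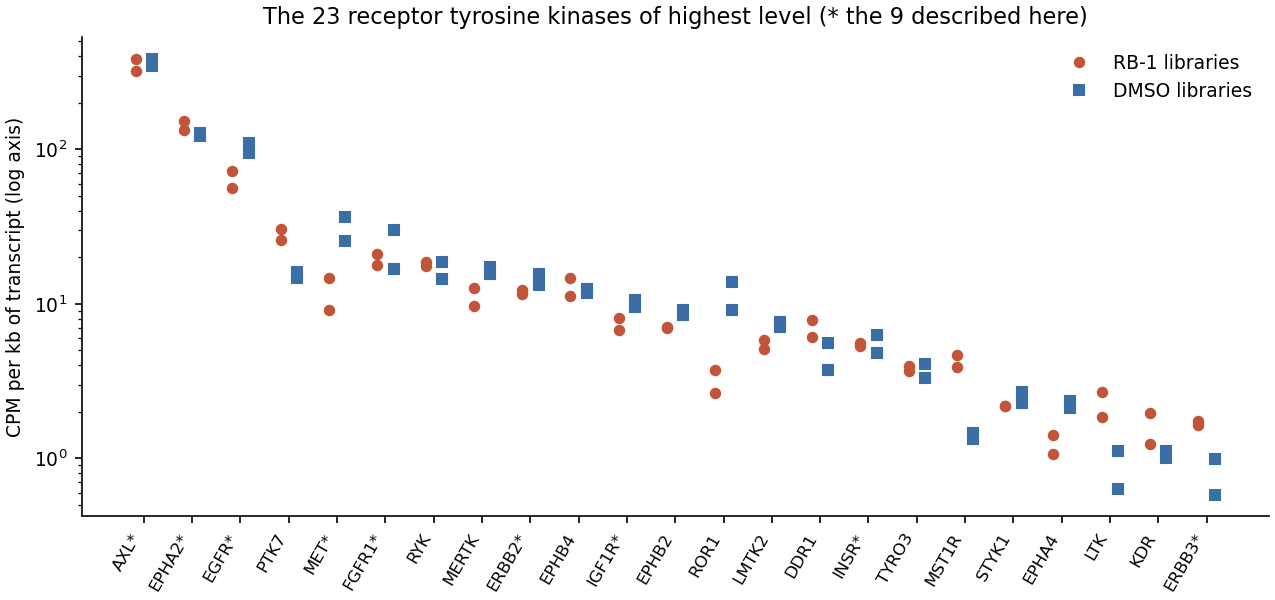
Level per transcript length (CPM per kb, log axis) of the 23 receptor tyrosine kinases with the highest mean, RB-1 libraries as circles left of DMSO libraries as squares, with the 9 described here starred. AXL, EPHA2 and EGFR lie above all others, and among the starred genes MET and ERBB3 show the widest gaps between groups.

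The other receptor tyrosine kinases give the family setting. Of 49, 30 were tested and 10 were at 0 counts in all libraries. Among the tested, 3 rose, 6 fell and 21 did not pass, against 12.8% higher and 16.1% lower among all genes, with a median log2 fold change of -0.25. EPHB3, a receptor of B-type ephrins, was 16.4-fold lower, with 17 and 17 counts in RB-1 and 237 and 267 in DMSO (log2 fold change -4.04 ± 0.40, edgeR adjusted p = 0.000265). ROR1, a WNT5A receptor, was 3.61-fold lower (-1.85 ± 0.32) and EPHA7 5.05-fold lower (-2.34 ± 0.46). MST1R, which encodes RON, the closest relative of MET, rose 3.06-fold to 21.8 and 18.3 CPM in RB-1, against 6.25 and 6.87 in DMSO (1.61 ± 0.31, edgeR adjusted p = 0.00466). PTK7, a kinase-inactive receptor of WNT signalling, rose by 0.88 ± 0.24, a call that was lost without RB-1 replicate 1 (0.77, adjusted p = 0.0811), DMSO replicate 1 (0.82, 0.131) or DMSO replicate 2 (0.97, 0.0939). MUSK, the muscle receptor of agrin signalling, had 0 and 4 counts in RB-1 and 22 and 26 in DMSO (-3.65 ± 0.92) and was not called without RB-1 replicate 1 (-2.69, adjusted p = 0.0867). TYRO3 (0.05 ± 0.28) and MERTK (-0.57 ± 0.27), the relatives of AXL, did not pass. The list had 1 higher and 3 lower with RB-1 replicate 1 left out, 2 higher and 4 lower with DMSO replicate 1 left out, and 1 higher and 4 lower with DMSO replicate 2 left out. With the length and GC correction 5 were higher and 5 lower, and EPHA7 was at -1.70, still called.

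Among ErbB ligands, 8 of 11 were tested, and 3 rose, 1 fell and 4 did not pass, against 12.8% higher and 16.1% lower among all genes. The list's median log2 fold change was 0.47. TGFA, transforming growth factor alpha, a ligand of EGFR, had 125 and 115 CPM in RB-1 and 41.7 and 35.1 CPM in DMSO. It rose 3.13-fold (1.65 ± 0.25, edgeR adjusted p = 0.00179) and was called in each alternative tried. HBEGF, the heparin-binding EGF-like factor, rose 1.66-fold to 104 ± 0.586 CPM in RB-1, against 62.5 ± 3.52 in DMSO (SD, n = 2 each; edgeR adjusted p = 0.0450). BTC, betacellulin, rose 2.38-fold (1.25 ± 0.33, adjusted p = 0.0183). NRG2, a ligand of ERBB3 and ERBB4, fell to 19 and 31 counts in RB-1, against 80 and 86 in DMSO (-1.88 ± 0.45, edgeR adjusted p = 0.0121). AREG (0.56 ± 0.31), EREG (0.39 ± 0.29), EGF (-0.53 ± 0.37) and NRG1 (-0.53 ± 0.26) did not pass. EPGN and NRG4 failed the count filter, and NRG3 was at 0 in all libraries.

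The HBEGF call was lost whichever library was left out, and the BTC call with any 1 of 3 of the 4 libraries left out. HBEGF was not called without RB-1 replicate 1 (0.73, adjusted p = 0.0956), RB-1 replicate 2 (0.74, 0.0581), DMSO replicate 1 (0.67, 0.233) or DMSO replicate 2 (0.81, 0.173), nor with the length and GC correction (0.36, 0.164) or with no count filter (0.0527). BTC was not called without RB-1 replicate 1 (1.32, adjusted p = 0.0504), DMSO replicate 1 (1.26, 0.104) or DMSO replicate 2 (1.26, 0.107), and was still called without RB-1 replicate 2 (1.18, 0.0457). NRG2 was not called without RB-1 replicate 1 (-1.56, adjusted p = 0.0812) or DMSO replicate 2 (-1.76, 0.0505).

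The ligand of MET, HGF, was at 0 counts in all 4 libraries. GAS6, the ligand of AXL, had 418 and 262 CPM in RB-1 and 224 and 187 CPM in DMSO, with RB-1 above DMSO. GAS6 missed the threshold (0.73 ± 0.27, edgeR adjusted p = 0.0672), and 1 of the 2 tested ligands of MET and AXL was called higher with upper-quartile factors, with library totals alone or without RB-1 replicate 2. PROS1, protein S, did not pass (0.05 ± 0.38). Of 9 insulin-like growth factors and binding proteins 5 were tested, and 1 rose, against 12.8% of all tested genes. IGF1 and IGFBP5 failed the filter, and INS and IGFBP2 were at 0. IGFBP6, which binds IGF2, rose 2.32-fold to 61.1 and 39.9 CPM in RB-1, against 20.6 and 22.9 in DMSO (edgeR adjusted p = 0.0148). It was not called without RB-1 replicate 1 (0.88, adjusted p = 0.0741), DMSO replicate 1 (1.14, 0.103) or DMSO replicate 2 (1.31, 0.0765), nor with the length and GC correction (0.53, 0.0720). Without RB-1 replicate 1, 1 other gene of the list fell.

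Of 10 fibroblast growth factors 6 were tested and 2 fell, against 16.1% of all tested genes. FGF13, an intracellular member that does not act through FGF receptors, had 0 counts in both RB-1 libraries and 81 and 69 in DMSO. That is at least 55.6-fold lower, against a floor of 3 counts over the RB-1 group, counting error only. FGF18, a secreted ligand, had 8 and 4 counts in RB-1 and 18 and 34 in DMSO (-2.25 ± 0.70, edgeR adjusted p = 0.0356). Its call was lost without RB-1 replicate 1 (-2.82, adjusted p = 0.0956), RB-1 replicate 2 (-1.85, 0.127) or DMSO replicate 2 (-1.65, 0.235), with DESeq2 (-2.30, 0.0998), with library totals alone (-2.04, 0.0512) and with no count filter (-2.25, 0.0513). FGF2, FGF7 and FGF9 failed the filter, and FGF10 was at 0. Among the A-type ephrins, ligands of EPHA2, 4 of 5 were tested and 0 passed by edgeR, DESeq2 or limma-voom, with 1 at an unadjusted p under 0.05. That one was EFNA3 (0.86 ± 0.35, edgeR adjusted p = 0.0897), which shares 44.7% of its exon bases with another counted gene on the same strand and is uncertain. EFNA2 failed the filter.

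Just inside the membrane, 17 adaptors and docking proteins were tested, and 1 rose, 4 fell and 12 did not pass. The shares over all tested genes were 12.8% higher and 16.1% lower. The list's median log2 fold change was -0.18. PTPN11, which encodes the phosphatase SHP2 that most receptors need to reach RAS, was 3.17-fold lower, at 97.6 and 144 CPM in RB-1 and 455 and 311 CPM in DMSO (-1.66 ± 0.28, edgeR adjusted p = 0.00292). The RAS exchange factors SOS1 and SOS2 were 2.82-fold and 2.66-fold lower, and FRS2, which docks on FGF receptors, 2.26-fold lower. GRB7, an adaptor of ERBB2 encoded beside it, rose 5.55-fold to 169 and 135 counts in RB-1, against 22 and 27 in DMSO (2.47 ± 0.41, edgeR adjusted p = 0.00245). GRB2 (-0.51 ± 0.30) and SHC1 (0.48 ± 0.23) did not pass.

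PTPN11 and GRB7 were called in each alternative tried. SOS1 was not called without DMSO replicate 2 (-1.28, adjusted p = 0.0566), and SOS2 was not called without RB-1 replicate 1 (-1.06, 0.0518) or DMSO replicate 1 (-1.22, 0.0649). With the length and GC correction PTPN11 was at -1.10, SOS1 at -0.75 and SOS2 at -0.89, all still called. FRS2 was lost without DMSO replicate 1 (-1.18, adjusted p = 0.0898) or DMSO replicate 2 (-1.16, 0.0977) with library totals alone (-0.99, 0.0549) and with the length and GC correction (-0.52, 0.233). With either DMSO library left out 2 adaptors fell, and with the length and GC correction 4 rose and 3 fell.

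In the RAS-RAF-MEK-ERK core 1 of 13 rose, 4 fell and 8 did not pass, against 12.8% higher and 16.1% lower among all genes. The median log2 fold change of the core was -0.28. Of those that fell, NF1, neurofibromin, a brake on RAS, was 3.34-fold lower, at 7.08 and 12.6 CPM in RB-1 and 31.2 and 34.6 CPM in DMSO (-1.74 ± 0.34, edgeR adjusted p = 0.00527). RASA1, another RAS GTPase-activating protein, was 2.64-fold lower, BRAF 2.63-fold lower and the scaffold KSR1 2.48-fold lower. MAP2K1, which encodes the kinase MEK1, rose 2.17-fold to 184 and 127 CPM in RB-1, against 79.4 and 63.6 in DMSO. About 14.7% of the exon bases of RASA1 overlap CCNH and 5.75% of those of MAP2K1 overlap SNAPC5, each on the opposite strand.

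NF1 was called in each alternative tried, at -0.79 with the length and GC correction. RASA1 was not called without RB-1 replicate 1 (-1.08, adjusted p = 0.0614) or DMSO replicate 1 (-1.10, 0.0667), and BRAF was not called without DMSO replicate 1 (-1.33, 0.0553) or with the length and GC correction (-0.57, 0.0658). KSR1 was lost without RB-1 replicate 1 (-1.05, adjusted p = 0.114) or DMSO replicate 2 (-1.03, 0.157) or with library totals alone (-1.09, 0.0558), and MAP2K1 without RB-1 replicate 1 (0.84, 0.0725) or DMSO replicate 2 (0.99, 0.0982). The number that fell was 2 without RB-1 replicate 1 and 2 without DMSO replicate 1, and with the length and GC correction 3 rose and 5 fell. The number that rose was 0 without RB-1 replicate 1, 2 without RB-1 replicate 2 and 0 without DMSO replicate 2.

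In the PI3K-AKT core 1 of 12 rose, 3 fell and 8 did not pass, against 12.8% higher and 16.1% lower among all genes. The median log2 fold change of the core was -0.50. PIK3R1, the main regulatory subunit, was 4.64-fold lower, at 6.52 and 11.3 CPM in RB-1 and 44.9 and 37.7 CPM in DMSO (-2.21 ± 0.34, edgeR adjusted p = 0.00176). INPP4B, a lipid phosphatase that opposes the pathway, was 3.48-fold lower. With the length and GC correction PIK3R1 was at -1.56 and INPP4B at -1.01. Both were called in each alternative tried. PIK3CD, the delta catalytic subunit, rose 2.46-fold to 33.3 and 33.1 CPM in RB-1, against 15.4 and 11.6 in DMSO (1.30 ± 0.29), and was not called without DMSO replicate 2 (1.13, adjusted p = 0.117). PIK3R3, a regulatory subunit that shares 17.4% of its exon bases with a gene on the same strand and is uncertain, was 2.17-fold lower. It was not called without RB-1 replicate 1 (-1.25, adjusted p = 0.0574), RB-1 replicate 2 (-0.99, 0.0697), DMSO replicate 1 (-1.15, 0.100) or DMSO replicate 2 (-1.06, 0.133), with library totals alone (-0.92, 0.0719) or with the length and GC correction (-0.77, 0.0603). The list had 1 higher and 2 lower with RB-1 replicate 1 left out, 2 higher and 2 lower with DMSO replicate 1 left out, and 0 higher and 4 lower with DMSO replicate 2 left out. PIK3CA missed the threshold (-1.29 ± 0.43, edgeR adjusted p = 0.0524), with 35.8% of its exon bases overlapping KCNMB3 on the other strand.

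Of 21 receptor inhibitors, phosphatases, ubiquitin ligases and related genes, 20 were tested, and 1 rose, 5 fell and 14 did not pass. Among all tested genes 12.8% rose and 16.1% fell. The list's median log2 fold change was -0.51. ERRFI1, which encodes MIG6, an inhibitor of EGFR and ERBB2 kinase activity, rose 2.24-fold to 494 and 585 CPM in RB-1, against 245 and 236 in DMSO (1.16 ± 0.23, edgeR adjusted p = 0.00505). USP8, which deubiquitinates receptors at endosomes, was 4.001-fold lower (-2.00 ± 0.31), and the ubiquitin ligases NEDD4 and NEDD4L were 4.14-fold and 2.35-fold lower. The receptor phosphatase PTPRK was 2.36-fold lower and the phosphatase PTPN2 2.13-fold lower. CBL, the ubiquitin ligase of EGFR and MET, had 14.7 and 123 CPM in RB-1 and 90.1 and 107 CPM in DMSO, so that 1 RB-1 library lay far below and the other above both DMSO libraries.

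ERRFI1, USP8 and NEDD4 were called in each alternative tried, with USP8 at -0.70 and NEDD4 at -1.38 under the length and GC correction. NEDD4L was not called with the length and GC correction (-0.52, adjusted p = 0.0798), and PTPRK was not called without DMSO replicate 2 (-1.24, 0.0517) and was at -0.75 with the length and GC correction. PTPN2 was lost without RB-1 replicate 1 (-0.98, adjusted p = 0.0693), DMSO replicate 1 (-0.999, 0.132) or DMSO replicate 2 (-1.16, 0.0882), or with library totals alone (-0.90, 0.0683). The number that fell was 9 without RB-1 replicate 2 and 3 without DMSO replicate 2.

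The 12 sheddases, convertases and their regulators release ligands and cleave or mature receptors. By edgeR 4 fell, 0 rose and 8 did not pass, against 16.1% lower and 12.8% higher among all genes. The list's median log2 fold change was 0.18. ADAM15 (0.72, adjusted p = 0.0514) and RHBDF1 (0.75, adjusted p = 0.0691) were higher at an unadjusted p under 0.05. TIMP3, the inhibitor of ADAM10 and ADAM17, was 5.83-fold lower, at 42.9 and 41.3 CPM in RB-1 and 242 and 248 CPM in DMSO (-2.54 ± 0.24, edgeR adjusted p = 0.000213). ADAM12 had 8 and 7 counts in RB-1 and 47 and 45 in DMSO, and the convertase PCSK5 had 6 and 14 counts in RB-1 and 59 and 53 in DMSO. ADAM10 was 2.23-fold lower (-1.16 ± 0.30, adjusted p = 0.0180). It was not called without RB-1 replicate 1 (-0.89, adjusted p = 0.112) or DMSO replicate 1 (-0.81, 0.165) or with library totals alone (-0.98, 0.0623), and was at -0.19 (0.488) with the length and GC correction. PCSK5 was not called without RB-1 replicate 1 (-2.13, 0.0566), when 2 of the list fell. The number higher was 2 with DESeq2, upper-quartile factors or RB-1 replicate 2 left out, and 3 with the length and GC correction. ADAM17, the main sheddase of EGFR ligands, did not pass (0.11 ± 0.32).

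**Figure D5:**
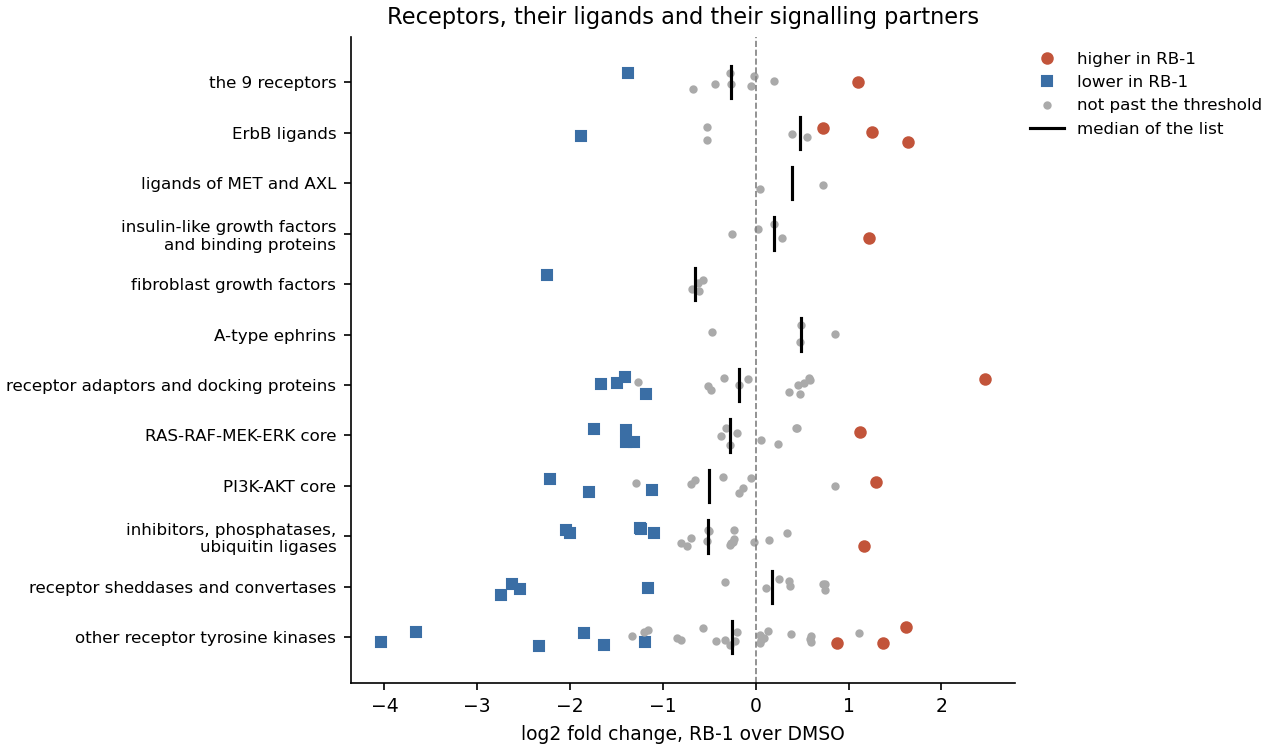
Log2 fold change (RB-1 over DMSO) of each tested gene of the 9 receptors and of their ligand, signalling and family lists, with red circles for called higher, blue squares for called lower, grey dots for not past the threshold and a bar at each list's median. Called genes of both directions occur in 7 of the 12 groups, and FGF13, at 0 counts in RB-1, is left out of the points but counted in its median.

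The genes most like MET over the 4 libraries, by Euclidean distance of centred log2 CPM among tested genes averaging 100 counts or more, were RASA1, ZNF180 and CEP97. Their distances were 0.0255, 0.0289 and 0.0427. RASA1 had 39.6 and 64.1 CPM in RB-1 and 162 and 111 CPM in DMSO, the same order of the 4 libraries as MET. With 4 libraries such likeness is a description only.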

How the data were processed

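Total RNA of 4 MDA-MB-231 samples was made into libraries with an mRNA kit, per the labels' protocols. The authors deposited raw counts per gene, 1 column per library. The labels name no aligner, counter or strand setting. The submitters' processing notes list GRCm38 and mm10, mouse builds, while the gene IDs are human, and which build was used for counting is not known here. A name table of human genes gave symbols for 20148 of 20263 IDs, and transcript lengths, GC content and exon overlaps came from GENCODE annotation on GRCh38.

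Counts were filtered with filterByExpr and compared, RB-1 against DMSO, by the quasi-likelihood F test of edgeR 4.0.16 in R 4.3.3 (TMM factors 0.868 to 1.10, robust estimation, legacy off), two-sided, with Benjamini-Hochberg adjustment over 13612 genes. With 2 residual degrees of freedom for each gene, the median standard error was 0.307 on the log2 scale, which limits what 2 libraries per group can show. SE is the log2 fold change divided by the square root of F. With counts scaled to library totals alone, replicates differed beyond sampling noise (chi-square per degree of freedom 128.0 in RB-1 and 257 in DMSO). They are therefore not copies of each other. All 4 libraries were kept. The length and GC correction used per-library offsets from splines with 4 degrees of freedom each. Other alternatives were RLE, upper-quartile and no factors, no or a stricter count filter (50 counts), DESeq2 1.42.0, limma-voom 3.58.1, an adjusted p of 0.01, the replicate number as a block, each library left out and, added after the data were seen, the legacy fit and a crossed block. The fit was tested on simulated data. The 9 receptors and the gene lists were chosen with earlier results of these data known. Named genes were all 9 receptors, the called members of each list with at most 6 such and otherwise the 6 of smallest p, and the 3 genes nearest to the receptor of smallest p. Others named without a call, and the overlap partners, were added after their values were seen. Some results are not reported here.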

Additional observations from a re-analysis of the deposited data

How the results depend on the processing

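Of the 144 values of the 9 receptors over 16 alternatives, 120 kept their direction and their side of the threshold. For the other 37 named genes 515 of 589 values did so, and none reversed. Those 37 were named because they passed in the main fit. Keeping their direction in refits of the same libraries was nearly fixed in advance, so the 37 cannot be compared with the receptors. Over all genes, 1737 rose and 2189 fell. An adjusted p under 0.01 gave 513 and 1067, library totals alone 1400 lower, and leaving out 1 library gave 522 to 1955 higher and 1065 to 2443 lower. The scaling shifted the log2 fold changes of genes by a median of 0.105 with upper-quartile factors and 0.193 with library totals alone. Those settings moved all receptors up too. With upper-quartile factors 2171 genes rose and 1830 fell, and with library totals alone 2059 rose. Among the receptors the count higher was 0 with no count filter, 0 at an adjusted p under 0.01 and 0 whichever library was left out. The count lower was 2, with EGFR added to MET, under DESeq2, limma-voom and the stricter filter, and 0 to 2 with 1 library left out. Signs turned only for receptors that were not called. AXL was at 0.048 with upper-quartile factors, 0.14 with library totals alone and -0.195 to 0.080 with 1 library left out. INSR was at 0.087 with upper-quartile factors, 0.16 with library totals alone, 0.41 with the length and GC correction and at -0.18 to 0.18 with 1 library left out. IGF1R was at 0.11 with the length and GC correction, and FGFR1 at -0.63 to 0.24 with 1 library left out. The cause of each was not tested. The replicate block gave 1741 higher and 2314 lower genes, with 1 receptor higher and 2 lower (EGFR -0.68, adjusted p = 0.0435). Under it HBEGF was not called (0.73, adjusted p = 0.0663). Deviations of same-numbered libraries from their group means had a correlation of -0.112 over genes. With 2 libraries per group this value cannot show whether the replicate numbers mark a pairing or a batch. A crossed replicate block, chosen after seeing the data, gave 1970 higher and 2550 lower genes, with 1 receptor higher and 1 lower. With the edgeR legacy fit, also chosen after seeing the data, 1702 genes rose and 2149 fell.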
